A study of Mus musculus with 24 samples.

Results

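Of the 16194 probes on the array that were named by a genomic interval rather than by a transcript, 686 were detected throughout at least 1 tissue outside the brain and on few or none of the brain arrays. A probe was counted when the scanner software marked it well above background on all 6 arrays of liver, of heart or of muscle, and on at most 2 of the 6 brain arrays. These 686 probes, 4.24% of the interval probes, lay in 496 of 4610 intervals. They were chosen by these detection flags, so their low brain values and the tissues in which they were bright are given as descriptions without a test. The arrays measured total RNA of female *Rap1* (Terf2ip) knockin mice, in which CRISPR/Cas9 had replaced isoleucine 312 of RAP1 by arginine (I312R), and of WT females, after 4 backcrosses to C57BL/6N. There were 3 mice of each genotype, and each mouse gave liver, brain, heart and skeletal muscle, with 1 array per tissue. Letters name the mice, A to C for the knockin (KI) and D to F for WT. Mice C and F had an age of 14 months, and 4 mice an age of 15 months. The mutation is carried in the germ line and keeps RAP1 from binding TRF2, which anchors it at telomeres.

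Much of the mammalian genome between protein-coding genes is transcribed. The products include long noncoding RNAs, RNAs divergent from or antisense to a neighbouring gene, and unannotated extensions of known transcripts, and many of them are restricted to 1 or a few tissues. Liver and striated muscle have highly specialised transcript sets, with secreted proteins and metabolic enzymes in hepatocytes, and contractile and calcium handling proteins in heart and skeletal muscle fibres. A probe in an interval reports RNA that matches a short stretch of that interval on 1 strand. Coordinates are those of the array design, build mm9, and F and R are its strand letters. A gene map of that build was not used here, so no neighbouring gene is named. In whole tissue, fewer cells of a type and less RNA per cell cannot be told apart.

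Levels are log2 signal minus the 75th percentile of the array. A level of 0 is that percentile, and a difference of 1 is 2-fold. The percentile lay between a signal of 269 and 2198. The lowest level well above background lay between -6.74 and -5.38 on the brain arrays, -5.59 and -4.71 on heart, -5.81 and -4.09 on liver, and -4.43 and -3.93 on muscle arrays, so that the brain arrays reached lower levels than the muscle arrays did. The mean level of 8 markers of each tissue was highest in that tissue. It was 8.21 to 9.13 for hepatocyte markers in liver, 3.75 to 8.16 for cardiac markers in heart, 7.89 to 8.53 for skeletal muscle markers in muscle and 4.76 to 5.17 for neuron and glia markers in brain. Some arrays stood apart. The brain of KI mouse C carried hepatocyte markers at a mean level of 4.63, against -4.01 to -1.47 in the other 5 brains. The liver of KI mouse C carried skeletal muscle markers at 0.97, against -5.35 to -4.64 in the other livers. The muscle of KI mouse B carried mammary markers at -1.60, against -5.19 to -5.02. Of these 8 markers, Wap and Csn3 were on no muscle array, Krt14 and Lalba on all 6, and Csn2, Csn1s1, Wfdc18 and Krt8 on 1 each. The same muscle was also highest for blood and immune markers, at 1.06, and for fat markers, at 3.65. WT muscles reached 0.39 and 3.43 for these lists. Myl7, an atrial myosin light chain, was at 7.65 in the heart of KI mouse B and 4.48 in that of WT mouse E, against -3.04 to 0.41 in the other hearts. Terf2ip itself was well above background on all 24 arrays with both of its probes. Its brighter probe lay between 0.33 and 1.18 in liver, 0.36 and 0.87 in heart, 0.94 and 1.25 in muscle and 1.03 and 1.66 in brain. A point mutation need not change its level.

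Heart was the tissue in which most of the 686 probes were detected. All 6 hearts were well above background for 427 of them (62.2%), all 6 muscles for 271 (39.5%) and all 6 livers for 207 (30.2%). Among these tissues heart also had the most interval probes of any kind on all 6 arrays, 5470, beside 4266 in muscle and 4037 in liver. The probes counted here were 7.81%, 6.35% and 5.13% of those. By the set of tissues in which all 6 arrays were well above background, 244 probes belonged to heart alone, 150 to liver alone, 101 to muscle alone and 134 to heart and muscle. Another 21 belonged to liver and heart, 8 to liver and muscle, and 28 to liver, heart and muscle. "Alone" means that no other tissue had all 6 arrays, not that it had none. On the muscle arrays the heart-alone probes had median levels of -4.62 to -4.30, where the lowest level well above background was -4.43 to -3.93. The part of the detection limits in these counts was not tested. Of the 686 probes, 163 were on no liver array, 85 on no heart array and 210 on no muscle array.

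The same rule applied to the 28331 probes that a gene symbol named took 950 of them, or 3.35%. Their split over tissues was different. Liver alone held 40.4% of the named probes and 21.9% of the interval probes, heart alone 23.5% and 35.6%, muscle alone 7.58% and 14.7%, and heart and muscle 13.2% and 19.5%. These shares are counts of probes from the same arrays and carry no test. Among the fixed marker genes, Apoa1 and Apob, the apolipoproteins of high density and of very low density lipoprotein particles, met the rule in liver. Myl7 met it in heart, Ckm, the creatine kinase of striated muscle, in heart and muscle, and Lep, the fat cell hormone leptin, in muscle. Adipoq and Cidec, both genes of fat cells, met it in several tissues. Alb, the main plasma protein, was on all 6 liver arrays but also on 4 brain arrays and did not meet it.

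**Figure D1:**
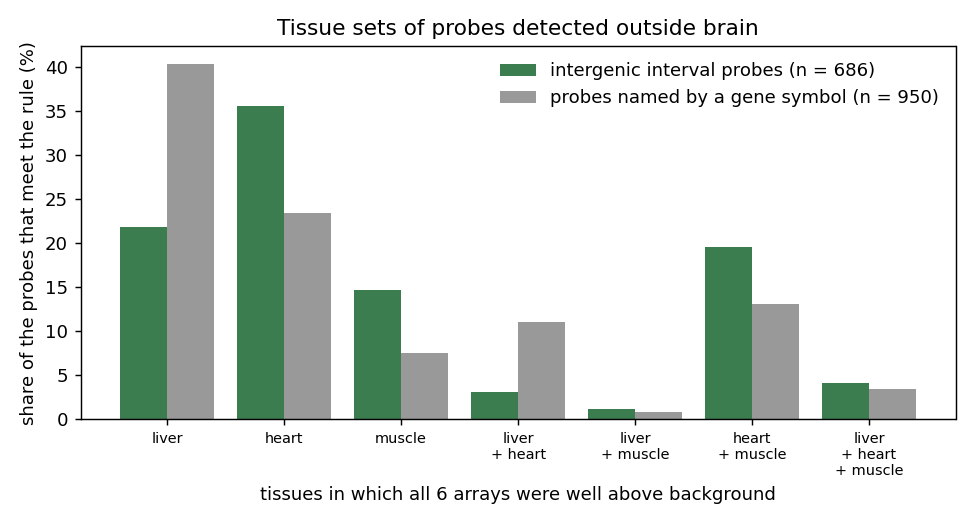
Share of the probes that met the rule (vertical axis, %) by the tissues in which all 6 arrays were well above background (horizontal axis), for interval probes (green) and probes named by a gene symbol (grey). Heart alone is the tallest green bar at 35.6% and liver alone the tallest grey bar at 40.4%.

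Most of the interval probes were dim. The mean level in the brightest of the 3 tissues had a median of -2.85 over the 686 probes, with quartiles of -3.45 and -1.83, and 57 probes (8.31%) lay above 0. Of the 950 named probes, 38.0% lay above 0, with a median of -1.19. Of the 3040 interval probes well above background on all 24 arrays, 40.7% did, with a median of -0.52. The heart-alone probes were the dimmest set, with a median of -3.50 and 6 of 244 above 0. The 28 probes of all 3 tissues had a median of -0.51 and 13 lay above 0.

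**Figure D2:**
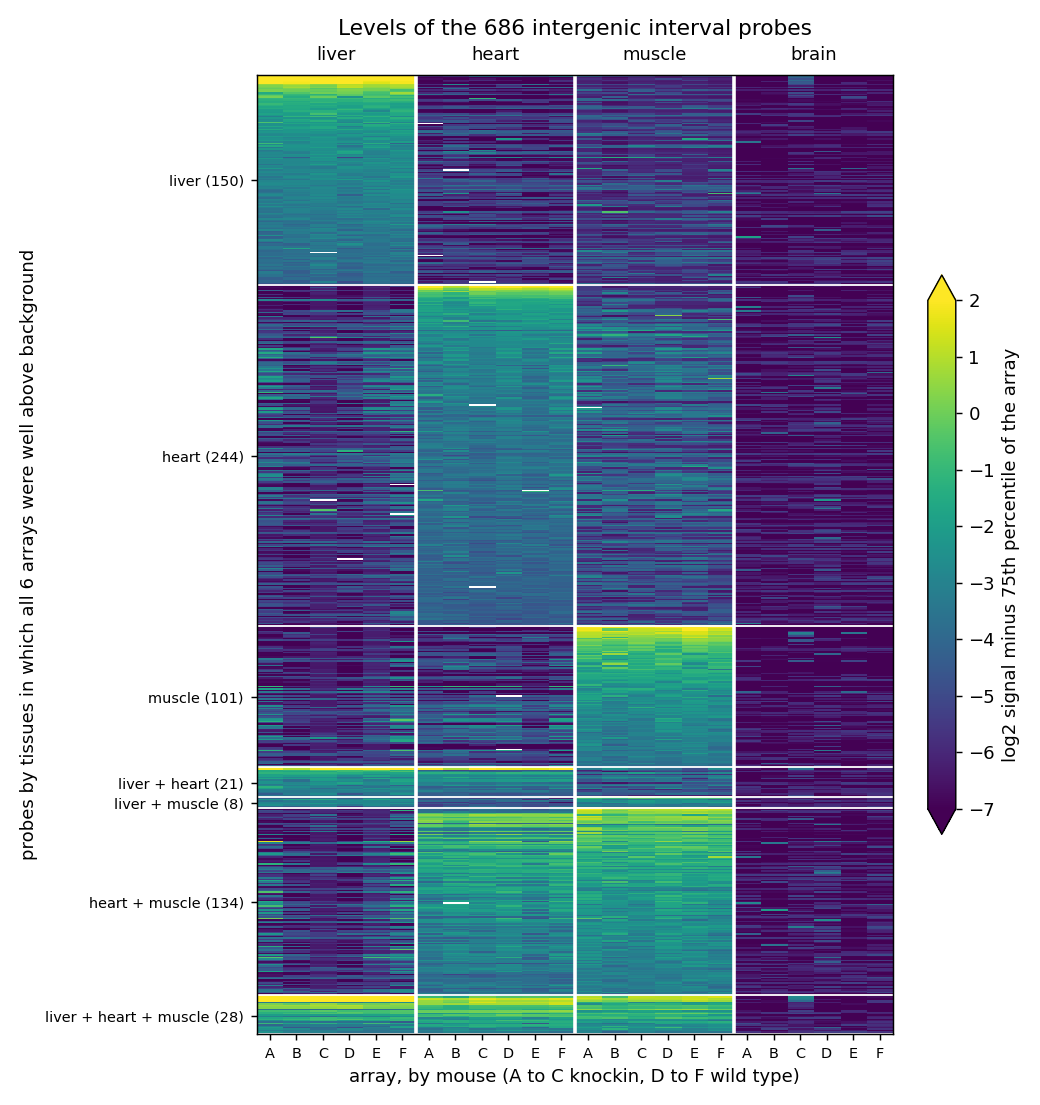
Level (colour, log2 signal minus the 75th percentile of the array) of the 686 probes (rows, ordered by tissue set and then by level in the brightest tissue) on the 24 arrays (columns, by tissue and mouse; A to C are KI and D to F are WT, white cells are missing). Each set is bright in its own tissues with similar columns for KI and WT, a few rows of each set exceed 0, and the brain column of mouse C is lighter than the other brains for the brightest liver rows.

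In liver the brightest probe detected there alone was A_30_P01029478, in chr6:40693617-40720167, strand F. Its liver levels were 4.55, 4.58 and 4.50 in KI mice A to C and 4.49, 4.47 and 4.62 in WT mice D to F. The genotypes overlapped, and the mean was 4.54 ± 0.06 (SD, n = 6). Its mean level was -4.89 ± 0.67 in heart, where 3 arrays were well above background, and -4.37 ± 0.74 in muscle, where 1 was. In brain it was at -1.98 in KI mouse C and between -7.48 and -5.32 in the other mice. A second probe of the same interval and strand, A_30_P01026532, was at 2.79 ± 0.34 in liver, and another, A_30_P01032177, at 0.63 (mean of 6). On strand R of the same coordinates, A_30_P01019228 and A_30_P01019888 were also detected in liver alone, at -1.73 and -3.96. All 5 probes of these coordinates that met the rule were thus liver probes, on both strands.

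A_30_P01022288, in chr10:116814196-116920696 on strand R, was next among the liver-alone probes, at 2.33 ± 0.30 (SD, n = 6) in liver. No heart or muscle array was well above background for it, and its liver mean was at least 175-fold higher than in heart and at least 85.3-fold higher than in muscle. Such a bound sets the bright mean against the dim arrays, with the array's detection limit (its lowest level well above background) in place of any lower value. The interval chr1:71939741-71947891, strand F, had 3 probes and all 3 met the rule in liver alone. A_30_P01018133 and A_30_P01027939 of that interval lay between 1.95 and 2.50 in all 6 livers and were not well above background on any heart or muscle array.

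Some liver-bright probes were also detected in heart and muscle. A_30_P01021733, in chr13:28537223-28539860 on strand R, had the highest level reached by any of the 686, at 5.85, 5.65 and 5.54 in KI livers and 5.26, 5.58 and 5.60 in WT livers. Its mean was 5.58 ± 0.19 (SD, n = 6) in liver, -0.52 ± 0.60 in muscle and -4.21 ± 0.34 in heart. In brain it was at -1.82 in KI mouse C and between -7.73 and -7.28 in the other 5. Another probe of that interval and strand that met the rule, A_30_P01029325, was counted with heart and muscle. It was not well above background on all 6 livers, and its mean muscle level was -3.28 in KI and -2.57 in WT mice. A_30_P01024995, in chr17:32044823-32045974 on strand R, was at 3.80 ± 0.39 in liver, 0.88 ± 0.80 in muscle and -0.67 ± 0.55 in heart. The other 2 probes of that interval, A_30_P01019750 and A_30_P01023749, showed the same order of tissues and did not meet the rule, because 3 and 4 brain arrays were well above background.

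In heart the brightest probe detected there alone was A_30_P01029859, in chr2:113880070-113887230 on strand F. Its levels were 2.83, 2.19 and 2.72 in KI hearts and 2.96, 2.89 and 2.79 in WT hearts, with a mean of 2.73 ± 0.28 (SD, n = 6), and it was at least 186-fold higher than in liver, where no array was well above background. Its muscle values differed between the mice and are described with the genotypes. A_30_P01022893, in chr9:30529709-30589042 on strand R, was at 2.0 ± 0.42 in heart, with 1.15 in KI mouse B and 2.02 to 2.27 in the others. A_30_P01023596, in chr19:56815544-56821403 on strand R, was at 1.69 ± 0.41, with 0.90 in KI mouse B and 1.63 to 2.0 in the others. Both were lowest in the heart that was highest for the atrial marker Myl7. The heart of WT mouse E, next highest for Myl7 at 4.48, lay within the range of the others for both probes. The part of tissue composition in this was not tested. Neither probe was well above background on any array of another tissue. The first was at least 237-fold higher in heart than in brain, at least 112-fold higher than in liver and at least 67.5-fold higher than in muscle.

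In muscle the brightest probes detected there alone were A_30_P01018904, in chr8:124697835-124699013 on strand F, at 2.19 ± 0.20 (SD, n = 6), and A_30_P01024928, in chr8:126396600-126407275 on strand R, at 2.04 ± 0.24. The first was well above background on 1 heart and 2 brain arrays. The second was on no array of another tissue, and its muscle mean was at least 245-fold higher than in brain, at least 143-fold higher than in heart and at least 116-fold higher than in liver. Another probe of that second interval, A_30_P01024600, was at 2.68 ± 0.33 in muscle and also on all 6 liver arrays, at -1.68 ± 0.23. A_30_P01028803, in chr6:37630192-37682692 on strand F, was at 1.27 ± 0.81. Its muscle levels were 1.77, -0.24 and 1.26 in KI mice A, B and C and 1.33, 2.15 and 1.32 in WT mice. The lowest was the muscle of mouse B, which carried mammary markers, and whether this is connected was not tested.

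Some probes were shared between a pair of tissues at high level. A_30_P01028766 and A_30_P01018914, both in chr9:78107225-78118850 on strand F, were at 2.39 ± 0.41 and 1.92 ± 0.46 (SD, n = 6) in liver and at 1.80 ± 0.56 and 1.93 ± 0.66 in heart. In muscle both were far lower, at -3.41 and -3.39, with 4 and 5 arrays well above background. Of the 8 probes of liver and muscle, A_30_P01020683 was at -4.09 ± 0.48 in liver and -0.70 ± 0.22 in muscle, and A_30_P01027968, in chr6:136440100-136450050 on strand F, at -2.06 in liver and -3.22 in muscle. A_30_P01022397, in chr12:74140325-74142695 on strand F, was counted with heart and muscle, but its levels were unequal, 1.96 ± 0.36 in muscle and -4.06 ± 0.34 in heart. A_30_P01022813, in chr10:39666719-39679959 on strand R, was bright in 3 tissues, at 2.99 ± 0.12 in liver, 1.30 ± 0.30 in heart and 1.05 ± 0.27 in muscle. It was at -2.89 in the brain of KI mouse C and between -8.87 and -7.40 in the other brains.

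**Figure D3:**
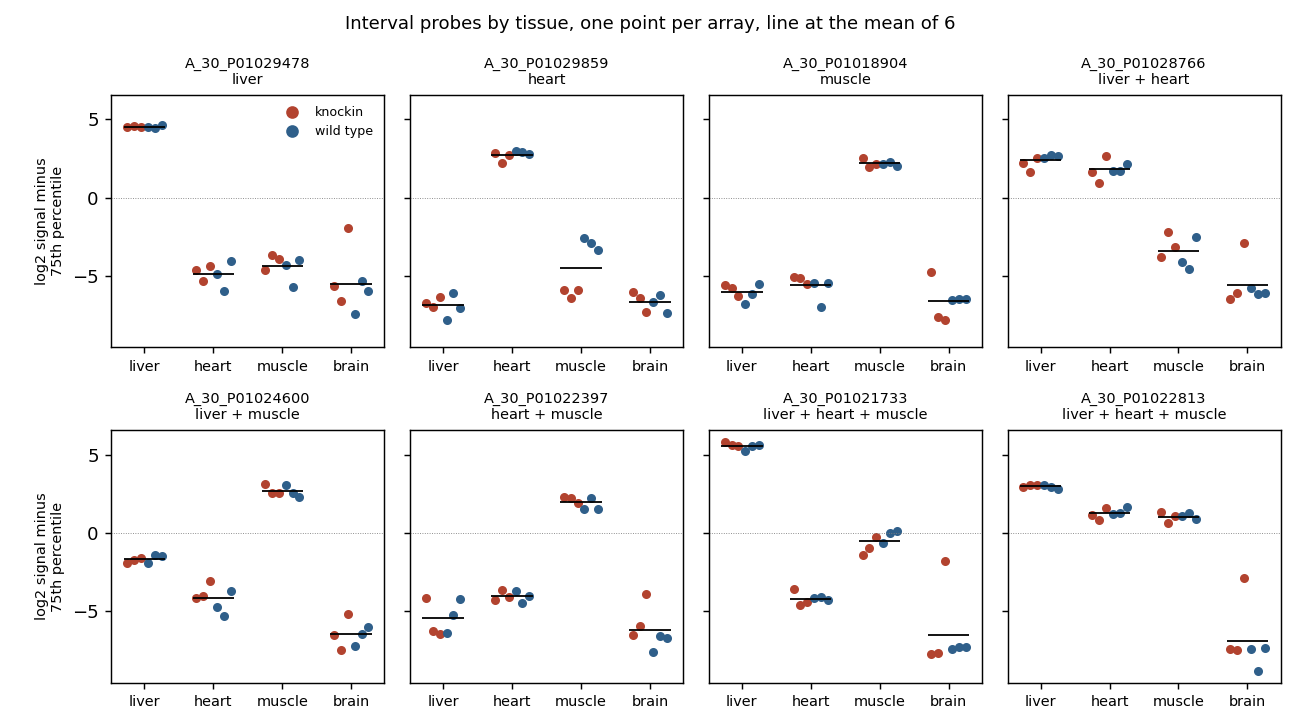
Level (vertical axis, log2 signal minus the 75th percentile) of 8 named probes in 4 tissues (horizontal axis), with 1 point per array, KI in red and WT in blue, and a line at the mean of 6. The 7 tissue sets are shown with their brightest probe, A_30_P01022813 is the eighth, and in several panels the single high brain point is KI mouse C.

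The 496 intervals held 2098 probes on the array, so most were covered by more than 1. Where 2 or more probes of an interval met the rule, their tissues were compared. This covers only probes that the rule had already chosen, and no test was run. Of the 496 intervals, 124 held 2 or more of the probes, 49 held 3 or more and 13 held 4 or more. In 88 of the 124 (71.0%) all these probes had the same tissue set, and in 103 (83.1%) the same brightest tissue. In 31 intervals with 2 or more probes on the array, every probe met the rule. The 496 intervals held 1412 other probes. Of these, 575 were detected throughout a tissue but on 3 or more brain arrays, and 837 were not on all 6 arrays of liver, heart or muscle. In 184 of the intervals another probe was on all 24 arrays, so that the label of an interval as outside brain held for single probes and not always for the interval.

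The densest place was chr12:74135916-74142780, where 3 overlapping intervals on both strands held 12 of the probes, 11 of muscle alone and 1 of heart and muscle. Strand R held 5 of 5 probes, at mean muscle levels from -1.60 to 0.98. Their means in heart lay between -6.90 and -4.55, in liver between -7.06 and -5.25 and in brain between -7.81 and -6.98. Every one of the 12 was brightest in muscle. At chr7:88668948-88678046, 7 probes on both strands were of heart and muscle, with R at -0.62 and -0.54 in heart and 0.45 and 0.55 in muscle, and F between -3.78 and -1.23 in heart and -3.42 and -0.87 in muscle. At chr10:39659425-39679959, 7 probes of 2 overlapping intervals on strand R were of liver, heart and muscle, and each was highest in liver.

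Among other dense places some kept to 1 tissue set and some were mixed. All 4 probes in chr1:141824450-141835125 (F) were of liver alone, at -3.48 to -2.60, as were the 4 in chr4:86267450-86277650 (F), at -3.93 to -1.98. At chr8:26343277-26352902, 5 probes in 3 intervals on both strands were of heart alone. The 8 probes at chr16:59556175-59603176 (R) were mixed, with 5 of heart and muscle, 2 of heart alone and 1 of all 3 tissues. At chr2:77146893-77155643, 7 of 8 were of heart and muscle and 1 of heart alone. Merging overlaps on either strand left 417 places, of which 64 joined 2 or more intervals and 46 had probes on both strands. Probes of 1 place may report the same RNA and are not independent.

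The probes lay on all autosomes and X, with 68 on chromosome 1, 56 on chromosome 4 and 55 on chromosome 8. As a share of the interval probes of a chromosome they ranged from 2.17% on chromosome 19 to 5.67% on chromosome 1, beside 4.24% overall. Strand R held 386 (56.3%) and strand F 300 (43.7%), while all interval probes were 49.5% R and 50.5% F. The 496 intervals had a median length of 13076 bases, from 67 to 423545. The median was 10676 over all 4610 intervals and 13326 over intervals with a probe on all 24 arrays.

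The limit on brain arrays was a cut through a continuous range. Of the 686 probes, 292 were on no brain array, 202 on 1 and 192 on 2. Just outside the limit, 177 probes were on 3 brain arrays and otherwise met the rule. Those on 2 had a median brain level of -6.01 and a highest one of -5.28 (A_30_P01022730), followed by -5.41 (A_30_P01022269). Those on 3 had a median of -5.69 and a highest one of -4.90 (A_30_P01033629), followed by -5.14 (A_30_P01030924). A further 4785 interval probes were on all 6 brain arrays and all 6 arrays of another tissue. Single brains differed in how many of the 686 they showed, 268 in WT mouse E and 160 in WT mouse F, 70 in KI mouse C, and 43, 29 and 16 in D, A and B. Brain arrays E and F also had the largest shares of all probes well above background, 68.4% and 66.3%. Leaving out the brain of mouse C and allowing 2 of the other 5 gave 784 probes. In that brain, 42 of the 686 were more than 1 above the highest of the other brains, among them 12 of the 150 liver-alone probes and 8 of the 28 of all 3 tissues. The same held for 39 of the 686 in the brain of WT mouse D, 18 of them heart-alone, and for 4 to 18 in each of the other brains.

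Levels were then compared between liver, heart and muscle with limma, over probes well above background on all 12 arrays of a pair of tissues and with p-values adjusted over all of them. The rule did not use these differences, but only probes of more than 1 tissue could enter. No liver shared a slide with a heart or a muscle, so tissue and slide cannot be told apart in those comparisons. Only the hearts of mice C and F shared the slide of the muscles. Between heart and muscle, 162 of the 686 were tested and 89 passed (54.9%), below the 64.7% of all 24829 probes. Of the 162, 34 were called higher in heart (21.0%, beside 26.5% of all probes) and 55 in muscle (34.0%, beside 38.3%). This split depended on the scaling. It was 50 and 41 with z-scores within each array and 25 and 84 after normexp background correction. Between liver and heart, 37 of 49 passed, beside 76.0% of all probes, with 24 of the 49 higher in liver (49.0%, beside 40.0%) and 13 in heart (26.5%, beside 35.9%). Without mouse C, 45 of 88 passed, 23 higher in liver and 22 in heart, and the median liver minus heart difference of those tested went from 0.45 to -0.13. Between liver and muscle, 30 of 36 passed, beside 77.3% of all probes, with 16 of the 36 higher in liver (44.4%, beside 34.8%) and 14 in muscle (38.9%, beside 42.6%), against 18 and 8 after quantile normalization and with z-scores, and 13 and 17 after normexp. With a size limit of 1 added, 58 of the 162 passed between heart and muscle (25.1% of all probes), 24 of the 49 between liver and heart (41.6%) and 20 of the 36 between liver and muscle (46.2%).

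The largest of these differences exceeded the spread between mice, with adjusted p (limma) of 7.33e-06 or less. For A_30_P01021733, whose levels are given above, liver minus heart was 9.79 (SE 0.16) and liver minus muscle 6.10 (SE 0.23). For A_30_P01024995, liver minus heart was 4.47 (SE 0.23) and liver minus muscle 2.92 (SE 0.28). For A_30_P01026361, in chr2:108456668-108532418 (F), liver minus heart was 3.59 (SE 0.21), from -0.90 ± 0.46 (SD, n = 6) in liver and -4.49 ± 0.35 in heart. These probes were higher in liver.

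Others were higher in heart than in liver. A_30_P01032168, in chr13:53100475-53113850 (F), was at 0.91 ± 0.55 (SD, n = 6) in heart, -1.91 ± 0.68 in muscle and -3.02 ± 0.38 in liver. Liver minus heart was -3.92 (SE 0.23) and heart minus muscle 2.82 (SE 0.32), so it was brightest in heart. A_30_P01020208, in chr8:70603786-70604243 (R), was at -1.35 ± 0.18 in heart, 0.20 ± 0.39 in muscle and -3.69 ± 0.09 in liver. Liver minus heart was -2.33 (SE 0.10) and liver minus muscle -3.88 (SE 0.15), so it was brightest in muscle. For A_30_P01023785, in chr2:128137419-128141735 (R), liver minus heart was -2.32 (SE 0.16). A_30_P01022910, in chr1:85304494-85305390 (R), was low in muscle, where it differed from liver by 1.94 (liver minus muscle, SE 0.23) and from heart by 2.58 (heart minus muscle, SE 0.22).

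Between heart and muscle the largest differences were towards muscle. Heart minus muscle was -6.02 (SE 0.18) for A_30_P01022397, -5.0 (SE 0.23) for A_30_P01027988, in chr17:15368546-15377747 (R), and -4.81 (SE 0.18) for A_30_P01027902, in chr1:85150625-85185800 (R). For A_30_P01032566, in chr1:122655019-122660142 (F), it was 3.32 (SE 0.24), in favour of heart. Liver minus muscle was -4.37 (SE 0.16) for A_30_P01024600 and -3.39 (SE 0.20) for A_30_P01020683, in chr3:90425270-90435820 (R). The differences named here kept their sign and stayed past the threshold with quantile normalization, z-scores and normexp, with the mouse as a block and without any 1 mouse.

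KI and WT mice were compared within each tissue with limma, over probes for which every array of 1 genotype or of both was well above background. None of the probes passed the adjusted threshold in liver (0 of 273, beside 0% of all 28038 probes), heart (0 of 478, 0% of 31516) or muscle (0 of 316, 0% of 27147). At an unadjusted p under 0.05 there were 27 in liver, or 9.89% beside 9.01% of all probes, 16 in heart, or 3.35% beside 1.72%, and 23 in muscle, or 7.28% beside 1.55%. A filter that needs only 1 genotype favours probes that differ, so the count was repeated over probes well above background on all 6 arrays. It gave 25 of 207 in liver (12.1%, beside 9.48% of all probes), 15 of 427 in heart (3.51%, beside 1.37%) and 17 of 271 in muscle (6.27%, beside 0.999%). The 17 in muscle lay in 17 intervals, the 15 in heart in 14 and the 25 in liver in 22. In each tissue more of these were lower in KI than higher, 17 against 8 in liver, 13 against 2 in heart and 13 against 4 in muscle. Over all probes the split, lower against higher, was 1106 against 1342 in liver, 223 against 180 in heart and 160 against 95 in muscle. After normexp background correction with the first filter, 13 of 266 in liver had an unadjusted p under 0.05, beside 2070 of all 27854. In heart it was 9 of 468, beside 363 of 31269, and in muscle 7 of 312, beside 158 of 26961. The liver share was then below that of all probes, and the other shares stayed above. In liver it was also below after quantile normalization (21 of 273, beside 2563 of 28038), but above with z-scores (20 of 273, beside 1683). With slide as a block in heart, 0 of 478 passed. With 3 arrays against 3 an exact permutation test cannot give a two-sided p under 0.10.

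The shift of the probes as a whole was small. The median KI minus WT difference over those tested was -0.12 in liver, -0.06 in heart and -0.07 in muscle, beside 0.00, -0.04 and 0.00 over all probes tested. Over probes on all 6 arrays it was -0.03, -0.09 and -0.07. Leaving out 1 mouse moved it between -0.24 (without E) and -0.03 (without F) in liver, -0.15 (without E) and -0.0042 (without D) in heart, and -0.15 (without F) and -0.013 (without B) in muscle. In liver it was 0.09 after normexp background correction, so its sign depended on the background step. Genotypes did not overlap for 30 of the 273 probes tested in liver, 29 of 478 in heart and 32 of 316 in muscle, beside 17.0%, 5.30% and 4.65% of all probes. Over probes on all 6 arrays, every KI value lay below every WT value for 23 probes in heart and above for 3, together 6.09% beside 4.96% of all probes. In muscle it was 16 below and 8 above (8.86%, beside 4.07%), and in liver 15 below and 10 above (12.1%, beside 17.3%). In the mean of liver, heart and muscle of each mouse, 28 probes on all 18 arrays were tested, 0 passed (0% of 22048) and 2 had an unadjusted p under 0.05 (7.14%, beside 3.50%). Whether the genotype difference varied with tissue was asked with a moderated F-test over the 24 arrays, without the mouse as a block. It called 0 of 28 (0 of all 22048), with 2 and 648 at an unadjusted p under 0.05.

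**Figure D4:**
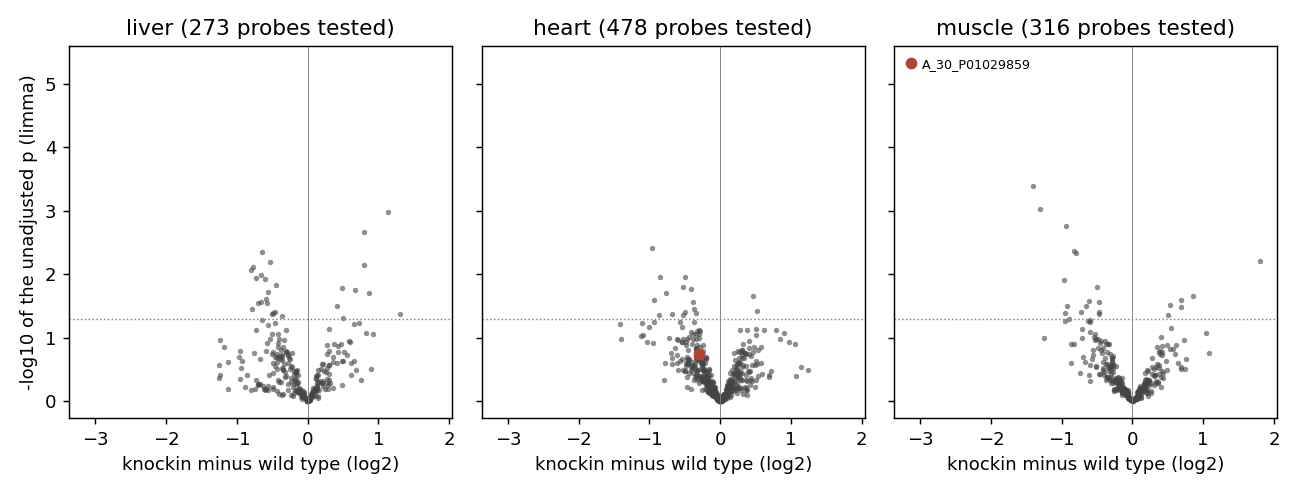
KI minus WT difference (horizontal axis, log2) against -log10 of the unadjusted limma p (vertical axis) for the interval probes tested in liver, heart and muscle, 1 point per probe, with a dotted line at an unadjusted p of 0.05. A_30_P01029859 (red) stands alone in muscle at -3.13 and lies among the other probes in heart at -0.29.

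In muscle the lowest unadjusted p of the 316 belonged to A_30_P01029859, the brightest heart-alone probe, which entered the test only through the WT arrays. Its levels in the muscles of KI mice A, B and C were -5.94, -6.41 and -5.91, and in the WT muscles D to F they were -2.62, -2.90 and -3.36. The groups did not overlap, and no KI muscle but every WT muscle was well above background. The fitted difference was -3.13 (SE 0.25), with an unadjusted p of 4.64e-06 and an adjusted p of 0.126 (limma). These values rest on KI signals below detection, the probe was not in the comparison over all 6 arrays, and the fold is bounded only as at least 2.20-fold higher in WT. The adjusted p was 0.0298 after quantile normalization, 0.0041 when all 24 arrays were fitted together and 0.0043 in that fit with the mouse as a block, but 1.00 after normexp, where the difference was -0.71. The lowest adjusted p (limma) of any of the 686 probes in muscle was 0.0517 with z-scores and 0.104 with array weights. Without the filter on dim probes it was 0.963. Without any 1 mouse the adjusted p of A_30_P01029859 lay between 0.0658 and 0.645. In heart, where the probe was bright, the difference was -0.29 (SE 0.20).

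The other 2 probes of chr2:113880070-113887230 (F) did not meet the rule, being on 5 and 6 brain arrays, and they split the WT muscles. A_30_P01023257 was at -4.16, -4.53 and -4.23 in KI muscles and at -1.39, -4.12 and -2.02 in WT muscles. A_30_P01029543 was at -2.82, -4.99 and -3.75 in KI and at -0.32, -3.11 and -1.03 in WT muscles. The difference of A_30_P01029543 was -2.36 (SE 0.80), with an adjusted p of 1.00 (limma), and A_30_P01023257, on 2 muscle arrays, was not tested. In both, WT mice D and F were above all KI mice, while WT mouse E was close to or within the KI values. In heart these probes were at 3.66 to 4.27 and 4.35 to 5.28. The 8 cardiac markers were set beside this. In muscle KI and WT overlapped for 8 of 8, Myl7 and Ryr2 were not well above background on any muscle array and Tnni3 on 1, and the mean level of the list was -2.15 to -0.49 in KI and -2.17 to -1.11 in WT muscles. The part of tissue composition in the muscle values of this interval was not tested.

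**Figure D5:**
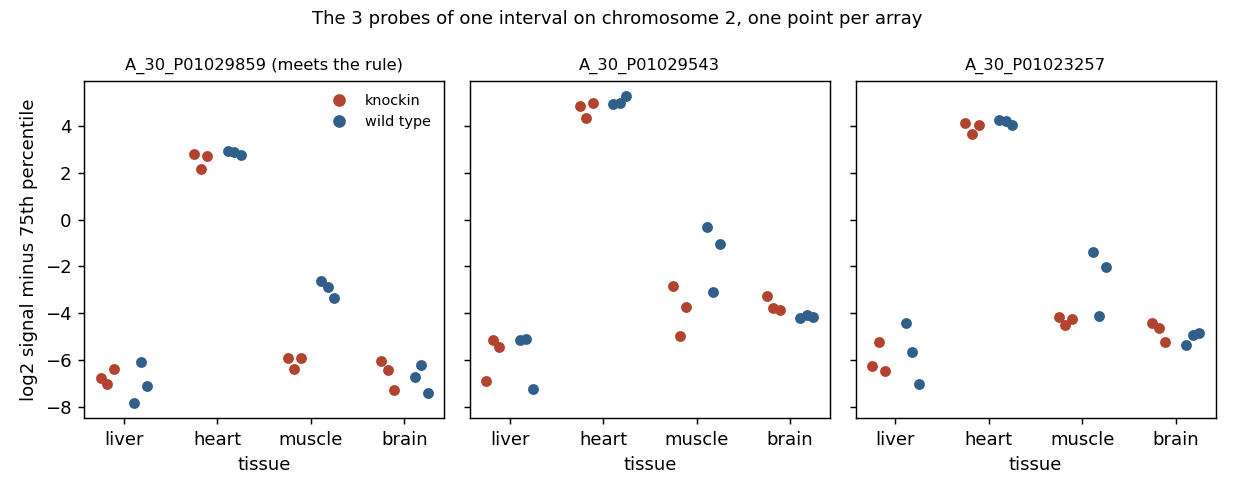
Level (vertical axis, log2 signal minus the 75th percentile) of the 3 probes of 1 interval on chromosome 2 in 4 tissues (horizontal axis), 1 point per array, KI in red and WT in blue. All are bright in heart, and in muscle the WT points lie above the KI points for A_30_P01029859 (-3.36 to -2.62 against -6.41 to -5.91), while for A_30_P01029543 and A_30_P01023257 1 WT muscle lies near the KI values.

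The next probes in muscle were A_30_P01033583, in chr9:78107225-78118850 (R), and A_30_P01027328, in chr4:146124275-146149125 (R), both with an adjusted p of 1.00. The first was at -3.10, -3.68 and -3.17 in KI and -1.71, -2.17 and -1.84 in WT muscles, a difference of -1.41 (SE 0.23), but its difference was 0.28 (SE 0.40) in liver and 0.14 (SE 0.74) in heart. The second was at -3.10, -3.45 and -2.99 in KI and -1.87, -2.24 and -1.51 in WT muscles, a difference of -1.31 (SE 0.24), while its difference was -1.25 (SE 1.48) in liver and -0.04 (SE 0.43) in heart. For both probes KI and WT were apart in muscle and overlapped in liver and heart. In the interval and strand of A_30_P01033583, its muscle difference rested on that probe. There A_30_P01019873, A_30_P01021311 and A_30_P01028123 were on no muscle array and A_30_P01023273 on 1, and none of them was tested in muscle. In liver A_30_P01021311 differed by -0.80 (SE 0.21) and A_30_P01019873 by 0.16 (SE 0.34).

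In liver the 3 smallest p among these probes belonged to A_30_P01026441, A_30_P01029545 and A_30_P01030639, all with an adjusted p of 0.542. A_30_P01026441, in chr14:77077374-77086910 (F), was at -2.85, -3.34 and -2.82 in KI and -4.33, -3.91 and -4.18 in WT livers, a difference of 1.13 (SE 0.20). It was well above background on 3 KI and 2 WT livers, so it entered the test only through KI. It was counted as a heart probe, and in heart the difference was 0.10 (SE 0.16). Of the same interval, A_30_P01032416 differed by 0.47 (SE 0.27) in liver, where the genotypes overlapped. A_30_P01024334 of that interval was well above background on no array. A_30_P01029545, in chr1:175660642-175671878 (R), was at -2.43, -2.88 and -2.57 in KI and -3.52, -3.32 and -3.44 in WT livers. Its difference was 0.80 (SE 0.16). The other 2 probes of that interval differed by 0.87 and 0.76 in liver, and for all 3 the heart difference lay between -0.16 and 0.01. A_30_P01030639, in chr1:161992257-161992963 (F), was at -1.29, -1.24 and -1.04 in KI and -0.39, -0.73 and -0.51 in WT livers, a difference of -0.64 (SE 0.15), and 0.00 in heart. The 5 probes at chr9:56910620-56919667 (R), named after their values were seen, were all lower in KI livers, by -0.74 to -0.58, with unadjusted p from 0.0101 to 0.0282 and none past the adjusted threshold. They lie in 3 intervals, of which the longest contains the others, and count as 1 place.

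In heart the 3 probes of smallest p each had an adjusted p of 0.997. A_30_P01018338, in chr14:106562325-106660675 (F), differed by -0.96 (SE 0.21), with the value of KI mouse B missing as an outlier spot, KI levels of -3.35 and -2.91 and WT levels of -2.14, -2.01 and -2.36. Another probe of that interval, A_30_P01029414, differed by -0.04 (SE 0.52) in heart. A_30_P01020340, in chr9:121206619-121273344 (F), differed by -0.50 (SE 0.15) and A_30_P01026116, in chr1:71939741-71947891 (F), by -0.84 (SE 0.25). The latter was well above background on 1 KI and 3 WT hearts. In the mean of the 3 tissues, A_30_P01030639 differed by -0.31 (SE 0.10), A_30_P01027010, in chr17:29183003-29217681 (R), by 0.36 (SE 0.12) and A_30_P01024995 by -0.53 (SE 0.25), each with an adjusted p of 0.970 (limma). For A_30_P01024995 the difference was -0.25 without KI mouse B, whose muscle carried mammary markers, and -0.81 without KI mouse C. The part of tissue composition in this was not tested.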

How the data were processed

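Per the labels, RNA of each sample was labelled with Cy3 and hybridised to a 1-colour Agilent array. The authors deposited intensity files of Agilent Feature Extraction 12.0.3.1, whose processed signal is background-subtracted and not normalized between arrays. The deposited score table (33912 features, with medians of -0.1 to 0.095 and an SD of 1.00 on each array, as z-scores have) held 0 of the interval probes and was not used. Control and outlier spots were left out. Each interval probe had 1 spot. Levels are log2 processed signal minus the 75th percentile of the 55681 probes of an array. limma 3.58.1 in R 4.3.3 (lmFit, eBayes, two-sided) was fitted to all probes passing the detection filter, with Benjamini-Hochberg adjustment over all of them and a threshold of 0.05, and was tested on simulated data. Arrays of a mouse share its number, which pairs arrays across tissues but not genotypes. The consensus correlation within a mouse was -0.02. All livers lay on 1 slide and all muscles on another. Hearts and brains lay on 2 slides each. The number of arrays limits the precision. Members, lists and the naming rule were chosen with earlier results of these data known. By that rule the text names the 3 brightest probes of each tissue set, the 3 of smallest p in each genotype comparison without a call, the 3 largest differences in each direction between tissues, and intervals with 3 or more probes. Probe sequences were not used here. The mammary, fat, and blood and immune marker lists served only to describe arrays.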

Additional observations from a re-analysis of the deposited data

How the results depend on the processing

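Alternatives were quantile normalization, z-scores within each array (differences then in SD units), normexp background correction, other filters on dim probes, array weights, the mouse as a block, and leaving out 1 mouse. Allowing 0 brain arrays left 292 probes, and leaving out 1 mouse gave 735 to 967. In muscle, 1 probe in place of 0, A_30_P01029859, passed after quantile normalization, in the fit of all 24 arrays, and in that fit given a random replicate block for mouse. The genotype comparison over probes on all 6 arrays, chosen after seeing the data, gave 0 in each tissue. Between tissues, a wider test took probes well above background in either tissue. It gave 492 of 585 (liver and heart), 404 of 442 (liver and muscle) and 353 of 536 (heart and muscle). This filter admits probes the rule had made differ. A size limit of 1 left 24 of 49 between liver and heart (41.6% of all probes). Between heart and muscle it left 58 of 162 (25.1%). A fixed replicate block for mouse gave 39 of 49 between liver and heart and 29 of 36 between liver and muscle. Between heart and muscle it gave 91 of 162. Leaving out 1 mouse gave 36 to 49, 25 to 36 and 81 to 94 in that order. The numbers tested were 49 to 88, 36 to 57 and 164 to 184. In the main fit 76.0%, 77.3% and 64.7% of all probes passed. Shares of all probes for either tissue, the block and leaving out 1 mouse are not given here. No named difference changed sign under any alternative run. The comparison with the deposited score table was not run, since it held no interval probe. Dim probes limit these data, because 629 of the 686 had a mean level below 0 in the brightest of the 3 tissues.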

Other observations

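Between mice of 1 tissue these probes varied somewhat more than others. Over probes on all 6 arrays of a tissue, the median SD among the 6 mice was 0.35 in liver, 0.34 in heart and 0.41 in muscle, beside 0.25, 0.22 and 0.27 over all probes and 0.32, 0.26 and 0.30 over all interval probes. The most variable ones were chosen after their values were seen, and KI and WT overlapped for those named next. A_30_P01028171, in chr5:15033568-15033987 (F), was at -1.35, -1.55 and 0.32 in KI hearts A to C and at 0.45, -4.58 and 0.42 in WT hearts D to F. In muscle it was at 0.02, -2.67 and -0.46 in KI muscles and 0.55, -0.45 and -0.58 in WT muscles, so that a different mouse was lowest in each tissue. A_30_P01028507, in chr7:71231097-71233680 (R), was lowest in the hearts of A and E, at -3.97 and -4.68, and highest in those of D and F, at -0.88 and -1.03, while in muscle it was highest in A, at -0.34, and lowest in B, at -3.90. In the livers, A_30_P01026254 and A_30_P01018486 of chr1:59449275-59474025 (F) moved together over the 6 mice, from -4.12 to -0.85 and from -2.90 to -0.56, with mice A and E highest for both. In muscle, A_30_P01030196 and A_30_P01030359 of chr1:78591605-78606083 (R) were both highest in KI mouse B, at 0.53 and 0.64, and lowest in WT mouse E, at -2.79 and -2.32. That muscle of mouse B was also the one with mammary markers, and whether this is connected was not tested. In liver, A_30_P01031688 of chr13:64381475-64415350 (F) was also among the most variable, and there the genotypes were apart, at -3.32, -1.75 and -3.54 in KI livers and -4.42, -3.59 and -4.52 in WT livers, a difference of 1.30 (SE 0.51) with an adjusted p of 0.547 (limma).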
